A study of Mus musculus with 15 samples.

Results

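The 9 genes described here are the enzymes and transporter of hepatic gluconeogenesis together with a transcriptional coactivator and a CREB3-family factor: Pcx, Pck1, Pck2, Fbp1, G6pc, Slc37a4, Gk, Ppargc1a and Creb3l2. They were taken by name from the count table, with the transcripts of each symbol summed, and are 9 of 35540 gene symbols in it and 9 of the 13916 genes with enough counts to be tested. The libraries are bulk RNA-seq of liver from mice fed a high-fat diet for 8 weeks, in 3 genotypes with 5 libraries each. The KO mice lacked Txnip, per their label. The C247S KI mice carried a knock-in that replaces 1 cysteine of TXNIP with serine. The WT mice carried neither change. All groups had the diet, so no group on another diet enters here. Strain, age, sex, fasting state, time of collection and the extent of the Txnip deletion were not given in the sources used here. TXNIP is an arrestin-like protein that binds thioredoxin and restrains glucose uptake, and the series, by its title, concerns the covalent bond between these proteins in the hepatic insulin resistance that such a diet brings.

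Gluconeogenesis makes glucose from lactate, amino acids and glycerol. Most of its steps are glycolysis run backwards, but a few glycolytic steps are irreversible and are bypassed by dedicated enzymes, encoded by Pcx, Pck1, Pck2, Fbp1 and G6pc. Slc37a4 supplies the substrate of the last of these, Gk brings in glycerol, and Ppargc1a and Creb3l2 encode regulators of transcription. In fasting, glucagon raises cAMP and the transcription of several of these genes through CREB, FOXO1 and the coactivator PGC-1α, while insulin lowers it, and in insulin resistance of the liver this restraint is often blunted.

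Library totals lay between 18047577 and 23379940 estimated counts. Txnip itself, the check of the labels, had 70.9, 123.5, 107.5, 74.2 and 119.0 CPM (counts-per-million, scaled by TMM factors) in KO livers, 167.6, 280.2, 99.9, 207.6 and 205.4 CPM in C247S KI livers and 180.4, 196.4, 319.9, 218.3 and 196.8 CPM in WT livers. Its log2 change was -1.17 (SE 0.24, adjusted p = 0.00887) in KO against WT, with no overlap. In KO against C247S KI it was -0.96 (SE 0.24, adjusted p = 0.0182), and there the groups overlapped, since C247S KI 3 lay below KO 2, KO 3 and KO 5. That call was lost without KO 4 (adjusted p = 0.0576). With the clock index, described next, as a covariate the changes were -1.16 and -0.94 and neither passed (adjusted p = 0.144 and 0.373). Transcript estimates do not show whether the remaining reads come from a deleted part. Hepatocyte genes such as Alb and Apoa1 were abundant in all 15 libraries, as the liver label requires. On the first 2 principal components (23.6% and 15.6% of the variance) all KO libraries lay to one side of the others, and on the second WT 1 lay at one end and KO 5 and C247S KI 5 at the other. WT 1, C247S KI 3 and C247S KI 5, which stood apart in earlier work on these data, were left out together in an alternative fit. A clock index, the mean log2 CPM of 5 genes that peak with DBP less that of 3 genes of the opposite phase, was 2.51 to 3.04 in KO livers, 0.32 to 1.70 in C247S KI livers and 1.32 to 2.25 in WT livers. Every KO library was thus above every other library, so genotype and clock phase cannot be told apart in any comparison with the KO group. The numbers that begin the sample titles also run in a separate range in the KO group, and the labels do not say what they number.

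In KO livers glycerol kinase fell relative to both other groups, to 0.609 of the WT level and 0.548 of the C247S KI level, and the mitochondrial PEP carboxykinase Pck2 fell to 0.516 of the C247S KI level. The classical gluconeogenic transcripts G6pc, Pck1 and Fbp1 did not pass the test in any comparison, and none of the 9 genes passed it in C247S KI against WT. Adjusted p-values throughout are from edgeR's quasi-likelihood test with Benjamini-Hochberg adjustment over all tested genes, and a gene is said to rise or fall when this is below 0.05. In KO against WT 1 of 9 genes was called, beside 6.75% of all tested genes called in either direction and 4.19% called lower. In C247S KI against WT 0 of 9 were called by edgeR, beside 0.0862% of all genes (12 genes). There 2 of 9 had an unadjusted p below 0.05, and DESeq2 and limma-voom also called 0 of 9. In KO against C247S KI 2 of 9 were called, beside 10.3% of all genes in either direction and 5.85% lower. With so few members these counts do not set them apart from the other tested genes. The median log2 change of the 9 genes was 0.12, 0.12 and -0.24 in the 3 comparisons in that order, beside -0.01, 0.00 and -0.03 over all tested genes. The comparisons of KO and of C247S KI with WT share the same 5 WT libraries.

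**Figure D1:**
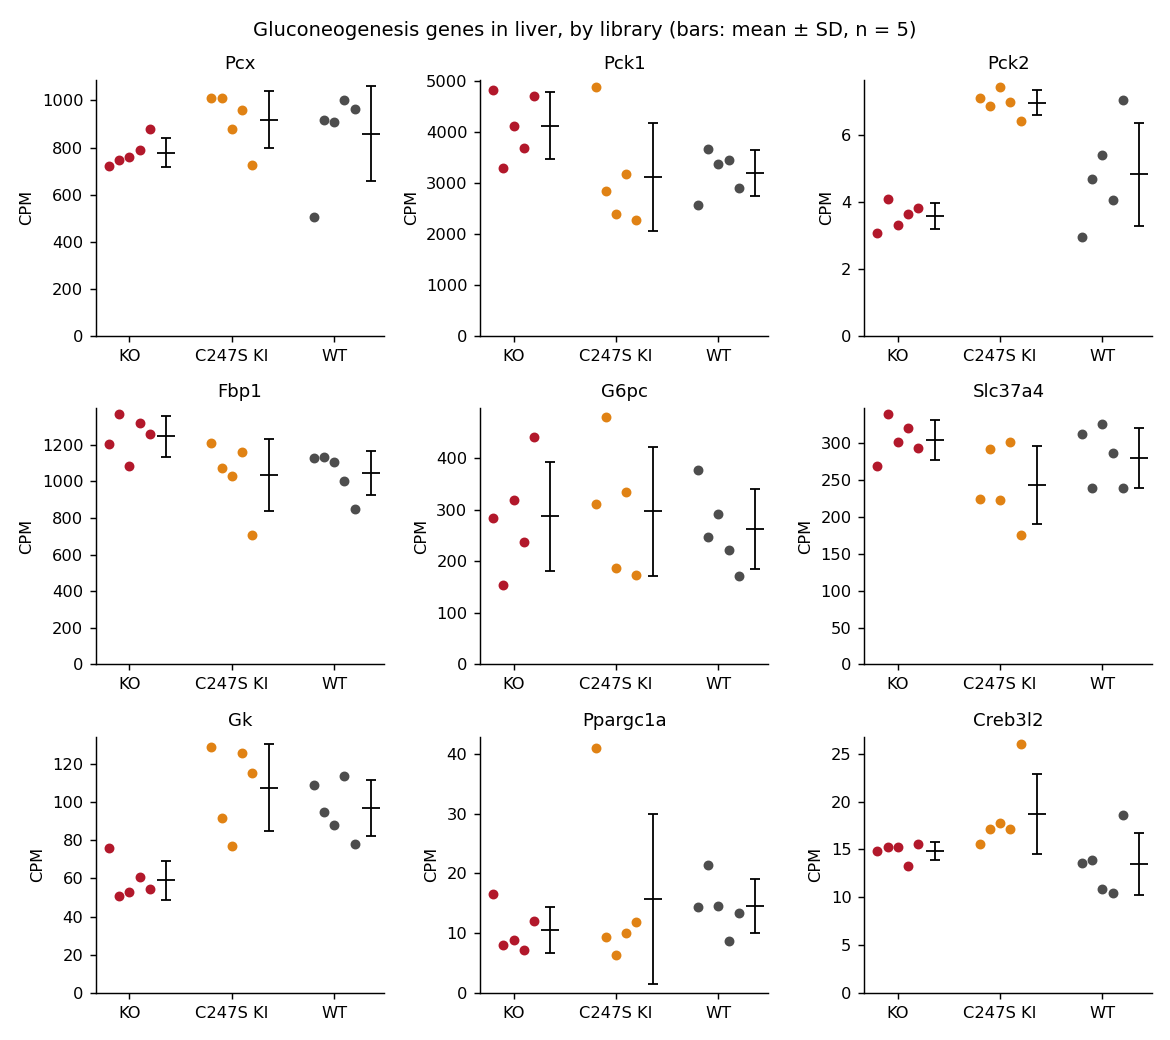
CPM of the 9 genes in each library (points, replicates 1 to 5 from left to right) with the mean ± SD of each genotype beside them (n = 5), each vertical axis starting at 0. The 5 KO points of Gk, at 50.6 to 76.2 CPM, lie below all points of the other genotypes, and 1 C247S KI library stands far above the rest for Ppargc1a at 40.9 CPM.

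Per unit of transcript length, Pck1 was the most abundant of the genes, with a mean level of 2036 TPM over the 15 libraries. Fbp1 followed at 1147 TPM and Pcx at 332 TPM. Slc37a4 at 210.5 TPM and G6pc at 180.1 TPM were neighbours that did not separate, with Slc37a4 above G6pc in 11 of 15 libraries. Gk stood at 35.3 TPM. Pck2 at 3.70 TPM, Creb3l2 at 3.60 TPM and Ppargc1a at 3.53 TPM closed the order and were not separated, since Pck2 exceeded Creb3l2 in 8 of 15 libraries and Creb3l2 exceeded Ppargc1a in 9 of 15. Pcx was above Slc37a4 in 14 of 15 libraries, and each other step of the order held in all 15.

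Pcx encodes pyruvate carboxylase, which makes oxaloacetate from pyruvate in the mitochondrion and opens the pathway for lactate and alanine (chr19:4510472-4621752, plus strand, GRCm38, as are all coordinates here). It had 722.8, 745.3, 761.5, 787.3 and 876.7 CPM in KO livers, 1011, 1012, 879.5, 960.5 and 723.9 CPM in C247S KI livers and 506.6, 917.4, 909.2, 999.9 and 963.9 CPM in WT livers. The groups overlapped, and the lowest library of all was WT 1. The log2 change was -0.14 (95% interval -0.49 to 0.21, adjusted p = 0.649) in KO against WT and -0.24 (-0.58 to 0.11, adjusted p = 0.373) in KO against C247S KI. Without WT 1, C247S KI 3 and C247S KI 5 KO against C247S KI gave -0.36 and passed at an adjusted p of 0.0275. C247S KI 5 and C247S KI 3 had the lowest Pcx of their group, at 723.9 and 879.5 CPM, so leaving them out widens this difference. For C247S KI against WT the log2 change was 0.09 (-0.25 to 0.44, adjusted p = 0.863). Transcripts from the upstream start of the gene held a median of 83.2% of its counts in KO livers, 79.0% in C247S KI livers and 79.6% in WT livers. Lrfn4 overlaps Pcx on the opposite strand at 0.981 to 6.6 CPM.

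Pck1 encodes the cytosolic phosphoenolpyruvate carboxykinase (PEPCK), which turns oxaloacetate into phosphoenolpyruvate and is a classical target of glucagon and insulin (chr2:173153048-173159273, plus strand). Its values were 4811, 3293, 4117, 3681 and 4710 CPM in KO livers, 4880, 2842, 2383, 3178 and 2272 CPM in C247S KI livers and 2562, 3669, 3368, 3453 and 2892 CPM in WT livers. In 4 of 5 KO libraries Pck1 lay above the whole WT range, while the highest single library was C247S KI 1. The log2 change was 0.37 (SE 0.20, interval -0.06 to 0.80, adjusted p = 0.287) in KO against WT and 0.41 (SE 0.20, -0.02 to 0.83, adjusted p = 0.206) in KO against C247S KI, so neither passed. In C247S KI against WT it was -0.04 (-0.46 to 0.39, adjusted p = 0.965).

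Pck2 encodes the mitochondrial isoform of the same enzyme, which is a minor form in mouse liver and a known target of the stress factor ATF4 (chr14:55540266-55551242, plus strand). It was scarce, with 61 to 88 estimated counts per KO library, 124 to 163 per C247S KI library and 57 to 138 per WT library. Its values were 3.07, 4.07, 3.30, 3.63 and 3.81 CPM in KO livers, 7.10, 6.84, 7.41, 6.97 and 6.39 CPM in C247S KI livers and 2.95, 4.67, 5.40, 4.04 and 7.02 CPM in WT livers. All KO libraries lay below all C247S KI libraries, as in 4.94% of all tested genes, while the WT libraries spread over both ranges. The coefficient of variation was 11.1% in KO livers, 5.39% in C247S KI livers and 31.7% in WT livers. Pck2 fell in KO against C247S KI, with a log2 change of -0.95 (SE 0.18, interval -1.34 to -0.57, adjusted p = 0.0035), and the exact two-sided permutation p of this difference alone was 0.00794, the smallest that 5 against 5 libraries allow. Neither mutant group passed against WT. There the log2 change was -0.43 (-0.82 to -0.04, adjusted p = 0.164) for KO livers and 0.52 (0.15 to 0.90, adjusted p = 0.367) for C247S KI livers. Without WT 1, the WT library with the least Pck2, KO against WT passed at an adjusted p of 0.0447. With the clock index as a covariate the KO against C247S KI change was -0.74 and its call was lost (adjusted p = 0.358). Protein-coding transcripts held 60.0% of the Pck2 counts, the lowest share of the 9 genes, and the retained-intron transcript Pck2-210 held 27.0%. None of its 4 tested transcripts passed on its own in any comparison with edgeR, and the most abundant protein-coding one had a log2 change of -1.12 (adjusted p = 0.189) in KO against C247S KI. Of 10 ATF4 targets, a list chosen later, edgeR called 1 in that comparison, beside 10.3% of all tested genes. It was Trib3, which rose (log2 1.64, adjusted p = 0.00275), and 3 of the 10 had a positive change (median -0.16). The part of ATF4 in the fall of Pck2 was not tested.

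Fbp1, the fructose-1,6-bisphosphatase of liver, removes a phosphate at the next irreversible step (chr13:62864753-62888282, minus strand). It had 1203, 1366, 1082, 1320 and 1257 CPM in KO livers, 1211, 1074, 1031, 1158 and 705.2 CPM in C247S KI livers and 1126, 1135, 1105, 1004 and 849.1 CPM in WT livers. In 4 of 5 KO libraries the level was above the whole WT range, and KO 3 was within it. The log2 change was 0.25 (-0.06 to 0.57, adjusted p = 0.324) in KO against WT, -0.01 (-0.32 to 0.30, adjusted p = 0.982) in C247S KI against WT and 0.27 (-0.05 to 0.58, adjusted p = 0.259) in KO against C247S KI.

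G6pc, the catalytic subunit of glucose-6-phosphatase, releases free glucose at the last step (chr11:101367561-101377903, plus strand). Its values were 284.4, 153.6, 317.9, 237.5 and 441.0 CPM in KO livers, 310.8, 480.5, 187.3, 333.6 and 173.7 CPM in C247S KI livers and 376.3, 247.7, 292.4, 222.6 and 170.8 CPM in WT livers. The 3 groups covered nearly the same range. Its coefficient of variation of 37.0% in KO livers, 42.0% in C247S KI livers and 29.6% in WT livers exceeded that of Slc37a4, which works beside it and varied by 8.81%, 21.6% and 14.5% in the same order. The log2 change was 0.13 (-0.49 to 0.75, adjusted p = 0.829) in KO against WT, 0.18 (-0.44 to 0.80, adjusted p = 0.853) in C247S KI against WT and -0.05 (-0.67 to 0.57, adjusted p = 0.931) in KO against C247S KI.

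Slc37a4 encodes the transporter that carries glucose 6-phosphate into the endoplasmic reticulum, where the phosphatase acts (chr9:44396852-44402968, plus strand). It had 269.0, 339.6, 302.0, 320.6 and 293.4 CPM in KO livers, 225.0, 292.4, 222.6, 302.2 and 176.3 CPM in C247S KI livers and 312.6, 239.0, 326.4, 286.6 and 238.9 CPM in WT livers. The groups overlapped. The largest of its log2 changes was 0.32 (0.01 to 0.63, adjusted p = 0.168) in KO against C247S KI, beside 0.12 (-0.19 to 0.43, adjusted p = 0.671) in KO against WT and -0.20 (-0.51 to 0.11, adjusted p = 0.664) in C247S KI against WT.

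**Figure D2:**
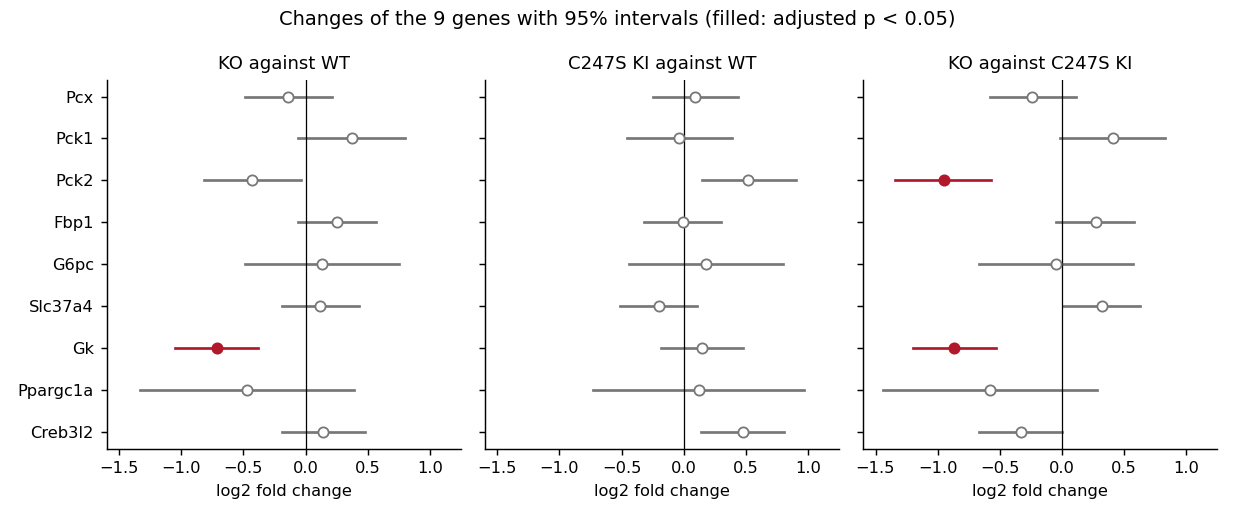
Log2 fold changes (horizontal axis) of the 9 genes in the 3 comparisons with 95% intervals, filled red where the adjusted p was below 0.05. Gk stands at -0.71 in KO against WT and -0.87 in KO against C247S KI, Pck2 at -0.95 in KO against C247S KI, and no gene is filled in C247S KI against WT.

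Gk encodes glycerol kinase, which phosphorylates glycerol from lipolysis to glycerol 3-phosphate, an entry into gluconeogenesis and into glycerolipid synthesis (chrX:85701937-85776819, minus strand). It had 76.2, 50.6, 53.0, 60.7 and 54.7 CPM in KO livers, 128.7, 91.5, 76.9, 126.0 and 115.3 CPM in C247S KI livers and 109.1, 95.1, 87.9, 114.0 and 78.3 CPM in WT livers. Every KO library was below every other library, though the highest KO value, 76.2 CPM, was close to the lowest C247S KI value, 76.9 CPM. All KO libraries were the lower ones for 5.09% of all tested genes in KO against WT. Gk averaged 59.0 ± 10.3 CPM in KO livers, 107.7 ± 22.6 CPM in C247S KI livers and 96.9 ± 14.8 CPM in WT livers (SD, n = 5 each). It fell in KO against WT, with a log2 change of -0.71 (SE 0.16, interval -1.05 to -0.38, adjusted p = 0.0126), and in KO against C247S KI, with -0.87 (SE 0.16, -1.20 to -0.53, adjusted p = 0.00253). The exact two-sided permutation p was 0.00794 for each, again the smallest possible, which groups of 5 without overlap always give. It thus adds nothing to the lack of overlap. Between C247S KI and WT the log2 change was 0.15 (-0.18 to 0.48, adjusted p = 0.759). With each library left out in turn the KO against WT change stayed between -0.81 and -0.64, with adjusted p-values of 0.00549 to 0.0433. With the clock index as a covariate it was -0.58 in KO against WT and -0.66 in KO against C247S KI, and both calls were lost (adjusted p = 0.22 and 0.322). In bulk liver, fewer cells of a type and less RNA per cell cannot be told apart. The summed level of 5 pericentral hepatocyte markers was 12112 to 15010 CPM in KO livers, 6272 to 10267 CPM in C247S KI livers and 8251 to 13009 CPM in WT livers. Cyp2e1 made up most of that sum, at 9800 to 12382 CPM in KO livers. In KO against WT edgeR called 0 of the 5, and 4 had a positive log2 change while Glul had -0.10. In KO against C247S KI all 5 were positive, and Cyp1a2 and Cyp2e1 were called. The summed level of 5 periportal markers was 6185 to 10306 CPM in KO livers, 5020 to 11326 CPM in C247S KI livers and 6581 to 10824 CPM in WT livers. The part of either list in the result was not tested. The related genes Gykl1 and Gk2 had 1 and 6 estimated counts in all libraries together.

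Among single transcripts of Gk, Gk-201 was the one that passed the test. Gk-201 and Gk-206 are protein-coding transcripts and held 42.0% and 47.0% of all Gk counts. They differ by an exon of 84 bases, which is 28 codons of the reading frame, and by 195 bases at the 5′ end of the first exon. The exon is the fifth of Gk-206, lies at chrX:85749612-85749695 on the minus strand and is skipped in Gk-201. The protein-coding transcripts Gk-202 and Gk-208, with 4.88% and 4.28% of all Gk counts, lack it too. The sequences show it in capitals with 15 bases of flank on each side, and the joined flanks of Gk-201. They were read from the spliced GENCODE M21 transcripts, so the flanks are bases of the neighbouring exons.
Gk-206: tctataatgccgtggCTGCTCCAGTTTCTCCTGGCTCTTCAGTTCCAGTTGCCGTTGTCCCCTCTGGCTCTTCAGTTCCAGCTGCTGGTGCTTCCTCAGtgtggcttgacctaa
Gk-201: tctataatgccgtggtgtggcttgacctaa

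Gk-201 had 24.3, 12.1, 22.9, 8.65 and 11.6 CPM in KO livers, 44.1, 46.4, 34.4, 51.6 and 54.3 CPM in C247S KI livers and 62.3, 39.2, 46.6, 60.4 and 36.2 CPM in WT livers. All KO libraries were below all others, and the share of all transcripts with such a gap is not given here. Over the 32585 tested transcripts Gk-201 was the only one of 31 tested transcripts of the 9 genes to pass. Its log2 change was -1.64 in KO against WT (SE 0.27, adjusted p = 0.0159, beside 0.641% of all transcripts called) and -1.53 in KO against C247S KI (SE 0.27, adjusted p = 0.0127, beside 1.59% called). In C247S KI against WT the log2 change was -0.11 (adjusted p = 0.98), and 0.00614% of transcripts were called. The KO against WT call was lost without KO 2 (adjusted p = 0.0561) and without KO 5 (adjusted p = 0.0539). Gk-206, with the exon, averaged 32.7 ± 6.67 CPM in KO livers, 49.6 ± 18.7 CPM in C247S KI livers and 40.8 ± 7.85 CPM in WT livers (SD, n = 5 each), and its groups overlapped. Its log2 change was -0.33 (SE 0.24, adjusted p = 0.735) in KO against WT and -0.59 (SE 0.24, adjusted p = 0.274) in KO against C247S KI.

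The share of Gk counts assigned to Gk-201 was 31.9%, 23.9%, 43.3%, 14.2% and 21.2% in KO livers, 34.2%, 50.7%, 44.7%, 41.0% and 47.1% in C247S KI livers and 57.1%, 41.3%, 53.0%, 53.0% and 46.2% in WT livers. In 4 of 5 KO libraries it was below the whole range of both other groups, and KO 3 was the exception. The mean share was 26.9% ± 11.1 in KO livers and 50.1% ± 6.31 in WT livers (SD, n = 5 each), a difference of -23.2 points (exact two-sided permutation p = 0.0159, adjusted over the 3 comparisons 0.0357). Against C247S KI (43.6% ± 6.29, n = 5) the difference was -16.7 points (exact p = 0.0238, adjusted 0.0357). Between C247S KI and WT it was -6.54 points (exact p = 0.135). This share was tested after the transcript values had been seen. Gk-201 and Gk-206 share most of their sequence, so the share rests on how the estimation divided ambiguous reads. It is not the share of transcripts without the exon, which Gk-202 and Gk-208 also lack. Gk-208 had log2 changes of 1.57 in KO against WT and 0.80 in KO against C247S KI, opposite in sign to Gk-201. Gk-202 had -0.10 and -0.84, and neither transcript passed in either comparison. A share of all transcripts without the exon was not tested.

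**Figure D3:**
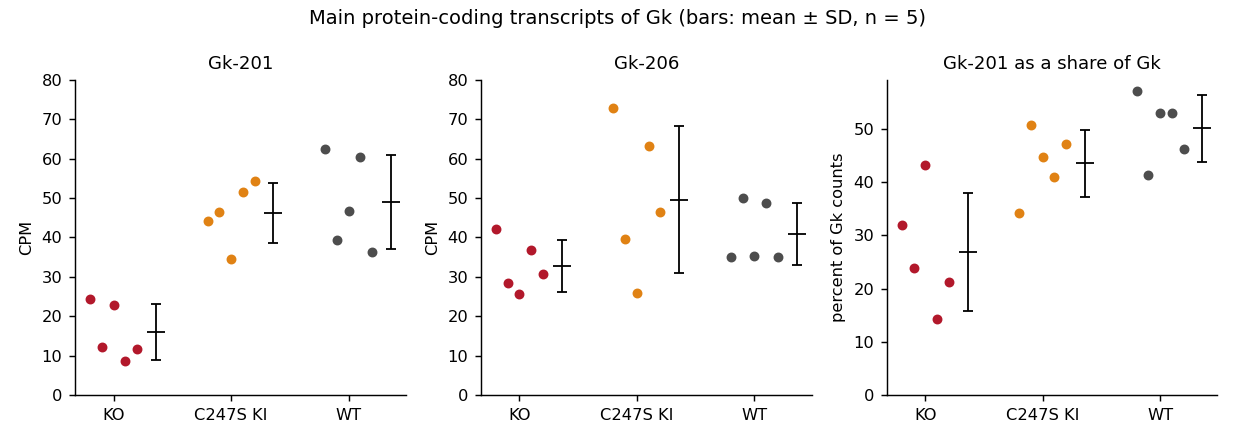
CPM of Gk-201 and Gk-206 and the share of Gk counts assigned to Gk-201 (percent) in each library, with the mean ± SD of each genotype (n = 5), axes from 0. KO livers lie below the others for Gk-201, at 8.65 to 24.3 CPM, while the Gk-206 points overlap, and 1 KO library reaches a Gk-201 share of 43.3%.

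Ppargc1a encodes PGC-1α, a coactivator that is induced by fasting and glucagon and works with FOXO1 and HNF4A on G6pc and Pck1 (chr5:51454250-51567726, minus strand). It had 16.5, 7.95, 8.86, 7.26 and 12.1 CPM in KO livers, 40.9, 9.34, 6.33, 10.1 and 11.9 CPM in C247S KI livers and 14.4, 21.4, 14.6, 8.72 and 13.4 CPM in WT livers. The highest C247S KI library had 6.47 times the lowest, the widest range of any of the genes. The log2 change was -0.47 (SE 0.41, -1.33 to 0.39, adjusted p = 0.535) in KO against WT, 0.12 (-0.73 to 0.97, adjusted p = 0.938) in C247S KI against WT and -0.58 (-1.44 to 0.28, adjusted p = 0.372) in KO against C247S KI. Without C247S KI 1 the sign turned in both comparisons of that group, to -0.62 in C247S KI against WT and 0.17 in KO against C247S KI, neither of which passed. Ppargc1a-203 held 95.5% of the counts.

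Creb3l2 encodes a membrane-bound CREB3-family transcription factor that is cleaved on its way from the endoplasmic reticulum and is best known for secretory pathway genes (chr6:37327255-37442146, minus strand). Its values were 14.8, 15.3, 15.3, 13.3 and 15.6 CPM in KO livers, 15.6, 17.1, 17.8, 17.1 and 26.0 CPM in C247S KI livers and 13.6, 13.9, 10.9, 10.4 and 18.6 CPM in WT livers. The C247S KI libraries lay above the KO libraries, with the nearest values both at 15.6 CPM when rounded, but overlapped the WT libraries. KO against C247S KI had the same exact two-sided permutation p as Gk and Pck2, 0.00794. Such a gap occurred in 4.94% of tested genes. The log2 change was 0.48 (SE 0.16, 0.14 to 0.81, adjusted p = 0.351) in C247S KI against WT, -0.33 (SE 0.16, adjusted p = 0.184) in KO against C247S KI and 0.14 (-0.19 to 0.48, adjusted p = 0.632) in KO against WT. Of the other CREB3-family genes 3 of 4 could be tested, and 0 were called by edgeR or limma-voom in any comparison, with 1, 0 and 1 at an unadjusted p below 0.05 in KO against WT, C247S KI against WT and KO against C247S KI. DESeq2 called Creb3l1 in both comparisons of the KO group.

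The promoter windows of Gk and Pck2, the genes that fell, are shown with those of Pck1 and G6pc, the classical cAMP-responsive genes of the pathway. Each holds 300 bases, from 250 before to 50 after the RefSeq start site (GRCm38.p6), 5′ to 3′ on the strand of the gene. Capitals mark matches on either strand to TGACG, the core of the cAMP response element, or to TGATGNAA, the C/EBP-ATF response element through which ATF4 is known to act.
Gk: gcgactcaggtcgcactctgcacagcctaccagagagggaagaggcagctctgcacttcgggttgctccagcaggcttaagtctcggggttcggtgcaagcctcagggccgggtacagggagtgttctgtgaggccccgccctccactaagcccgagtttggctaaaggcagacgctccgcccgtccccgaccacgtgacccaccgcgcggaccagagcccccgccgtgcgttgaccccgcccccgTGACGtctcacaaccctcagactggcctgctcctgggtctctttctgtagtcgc
Pck2: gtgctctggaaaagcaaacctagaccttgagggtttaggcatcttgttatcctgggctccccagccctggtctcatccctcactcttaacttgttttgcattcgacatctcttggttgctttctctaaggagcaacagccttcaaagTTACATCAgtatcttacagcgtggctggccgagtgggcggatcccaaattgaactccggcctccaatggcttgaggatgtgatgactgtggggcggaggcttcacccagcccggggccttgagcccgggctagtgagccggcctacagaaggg
Pck1: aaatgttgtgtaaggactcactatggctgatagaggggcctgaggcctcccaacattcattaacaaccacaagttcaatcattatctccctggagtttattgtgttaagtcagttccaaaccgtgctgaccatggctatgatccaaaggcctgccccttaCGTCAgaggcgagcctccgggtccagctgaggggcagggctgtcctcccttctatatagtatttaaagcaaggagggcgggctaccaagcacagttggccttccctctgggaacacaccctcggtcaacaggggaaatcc
G6pc: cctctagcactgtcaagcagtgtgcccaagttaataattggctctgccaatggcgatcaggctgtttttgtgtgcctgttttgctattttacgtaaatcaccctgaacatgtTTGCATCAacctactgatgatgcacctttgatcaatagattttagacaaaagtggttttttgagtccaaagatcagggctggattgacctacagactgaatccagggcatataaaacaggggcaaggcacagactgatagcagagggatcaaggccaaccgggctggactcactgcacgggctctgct

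These windows lie at chrX:85776770-85777069 (minus strand), chr14:55540016-55540315 (plus), chr2:173152823-173153122 (plus) and chr11:101367466-101367765 (plus). With positions counted from the start site as 0, TGACG stood at -4 in Gk on the gene's strand and at -90 in Pck1 on the other strand, within the sequence long known as its cAMP response element. TGATGNAA stood at -103 in Pck2 and at -138 in G6pc, each on the other strand. The annotated 5′ end of G6pc-201, the only G6pc transcript, lies at -155 by this count, so the G6pc match is downstream of it. Pck2-210, the Pck2 transcript with the most counts, begins 140 bases downstream of the start site of its window. The 9 genes had 12 RefSeq promoters, with several for Slc37a4 and Pcx. TGACG was found in 6 of these 12, from 5 genes, beside 20.8% of 32851 mouse promoters of the same length, and TGATGNAA in 2 of 12, beside 3.97%. Windows 1 and 2 of Slc37a4 overlap and hold the same TGACG, at -61 and -214, so that site counts in both. Window 2 holds another at -82. The Slc37a4 transcript with the most counts begins 1230 and 1077 bases downstream of the start sites of windows 1 and 2. Its 5′ end lies in window 3, which holds no TGACG. The Ppargc1a transcript with the most counts begins 13803 bases downstream of the start site of its window, which holds TGACG. Whether TGACG is more frequent in the promoters used in these livers was not tested. The full palindrome TGACGTCA, which contains TGACG, was in 0 of 12 (1.79% of all promoters) and the forkhead motif TGTTTAC in 0 of 12 (3.65%). The start site of the Gk window is the 5′ end of Gk-201, and Gk-206 begins 195 bases downstream, outside the window.

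Among 75 other genes of the pathway, 68 could be tested. In KO against WT 2 rose and 2 fell, in C247S KI against WT 0 were called by edgeR, DESeq2 or limma-voom (8 at an unadjusted p below 0.05), and in KO against C247S KI 3 rose and 5 fell. These 4 and 8 of 68 genes lie near the 6.75% and 10.3% of all tested genes called in the same comparisons. With single libraries left out they were 2 to 6 and 5 to 10 genes, as few as 2 without KO 3, KO 4, WT 2, WT 3 or WT 4 and as few as 5 without KO 2, KO 5 or C247S KI 4. Their median log2 change was 0.04, 0.00 and -0.01 in that order, close to that of all tested genes. The 11 enzymes of the reversible steps, among them Gapdh, had 0 edgeR and limma-voom calls in each comparison and 2, 0 and 1 genes at an unadjusted p below 0.05, with median log2 changes of -0.24, -0.10 and -0.19. DESeq2 called Pgam1 in KO against WT. The 6 genes of the opposing glycolytic steps, such as Pklr, also had 0 edgeR and limma-voom calls in each and 1, 2 and 1 genes at an unadjusted p below 0.05, with medians of 0.07, 0.19 and -0.04. Here DESeq2 called Pfkfb3 in KO against WT.

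In substrate entry 2 of 16 tested genes were called in KO against WT, beside 6.75% of all tested genes. In KO against C247S KI 4 of 16 were called, beside 10.3%. DESeq2 called 3 and 5 in these comparisons, with Sds added in the first and Gpt in the second. Limma-voom called 1, Pdk4, and 4. Whether this list differs from the other tested genes was not tested. Pdk4, the kinase that shuts off pyruvate dehydrogenase and so spares pyruvate for carboxylation, had 3.02, 2.68, 3.35, 3.78 and 2.80 CPM in KO livers, 55.2, 16.2, 9.01, 41.2 and 53.2 CPM in C247S KI livers and 7.30, 19.6, 52.8, 99.6 and 43.3 CPM in WT livers. All KO libraries were low and alike, below every other library. KO libraries lay below the whole other group in 5.09% of tested genes against WT and 4.94% against C247S KI. Pdk4 fell, with log2 changes of -3.83 in KO against WT (SE 0.61, adjusted p = 0.00181) and -3.49 in KO against C247S KI (SE 0.60, adjusted p = 0.00185). Slc16a1, the lactate and pyruvate carrier MCT1, averaged 20.7 ± 1.82 CPM in KO livers, 32.1 ± 5.53 CPM in C247S KI livers and 29.8 ± 6.68 CPM in WT livers (SD, n = 5 each). It fell in KO against C247S KI (log2 -0.63, adjusted p = 0.0134) and in KO against WT (-0.53, adjusted p = 0.0439), the second of which was lost in 14 of 25 alternatives. Aqp9, the glycerol channel of hepatocytes that feeds glycerol kinase, averaged 466.2 ± 63.9 CPM in KO livers, 334.0 ± 55.3 CPM in C247S KI livers and 363.3 ± 37.4 CPM in WT livers (SD, n = 5 each). Aqp9 rose in KO against C247S KI (log2 0.48, adjusted p = 0.0321, lost in 11 of 25 alternatives) and had a log2 change of 0.36 in KO against WT (adjusted p = 0.116), opposite in sign to Gk. Sdsl, a serine dehydratase-like gene, fell in KO against C247S KI (log2 -0.85, adjusted p = 0.0228, lost in 6 of 25).

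Among regulators, Stk11, which encodes LKB1, the kinase that activates AMPK and SIK enzymes and restrains gluconeogenesis in mouse liver, had 108.0 to 119.6 CPM in KO livers, 76.5 to 91.9 CPM in C247S KI livers and 65.8 to 91.0 CPM in WT livers. All KO libraries were above all others, and the share of all genes with such a gap upward is not given here. Stk11 rose by a log2 change of 0.47 in KO against WT (SE 0.10, adjusted p = 0.0109) and 0.43 in KO against C247S KI (SE 0.10, adjusted p = 0.0115). Cry1, a clock repressor that restrains cAMP-driven gluconeogenic transcription, fell in KO against C247S KI (log2 -1.02, SE 0.25, adjusted p = 0.0183). Nr4a1, an orphan nuclear receptor induced by cAMP, rose there (log2 1.20, SE 0.36, adjusted p = 0.045), a call lost in 14 of 25 alternatives. Of 19 transcription factors and co-regulators tested, 0 were called in KO against WT by edgeR or limma-voom, 7 had an unadjusted p below 0.05, DESeq2 called Tcf7l2, and the median log2 change was 0.14. Among other isoforms, Slc37a1, a relative of Slc37a4, fell in KO against C247S KI (log2 -1.44, SE 0.31, adjusted p = 0.00695). Gk5, a relative of Gk, rose in KO against WT (log2 1.63, SE 0.43, adjusted p = 0.0318) at the very low level of 0.305 to 1.76 CPM in KO livers and 0.145 to 0.509 CPM in WT livers, and was lost in 9 of 24 alternatives. With the clock index as a covariate each of these calls was lost. That fit called 39 of 13916 genes higher and 134 lower in KO against WT, and 20 and 64 in KO against C247S KI. The sizes of the changes in it moved unequally. Stk11 had 0.53 in KO against WT and 0.53 in KO against C247S KI, and Pdk4 had -2.58 and -2.04. Slc16a1 had -0.13 and -0.08 in these comparisons, while in KO against C247S KI Cry1 had -0.07, Sdsl -0.04, Aqp9 0.18, Slc37a1 -0.71 and Nr4a1 0.66. Gk5 had 1.18 in KO against WT.

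**Figure D4:**
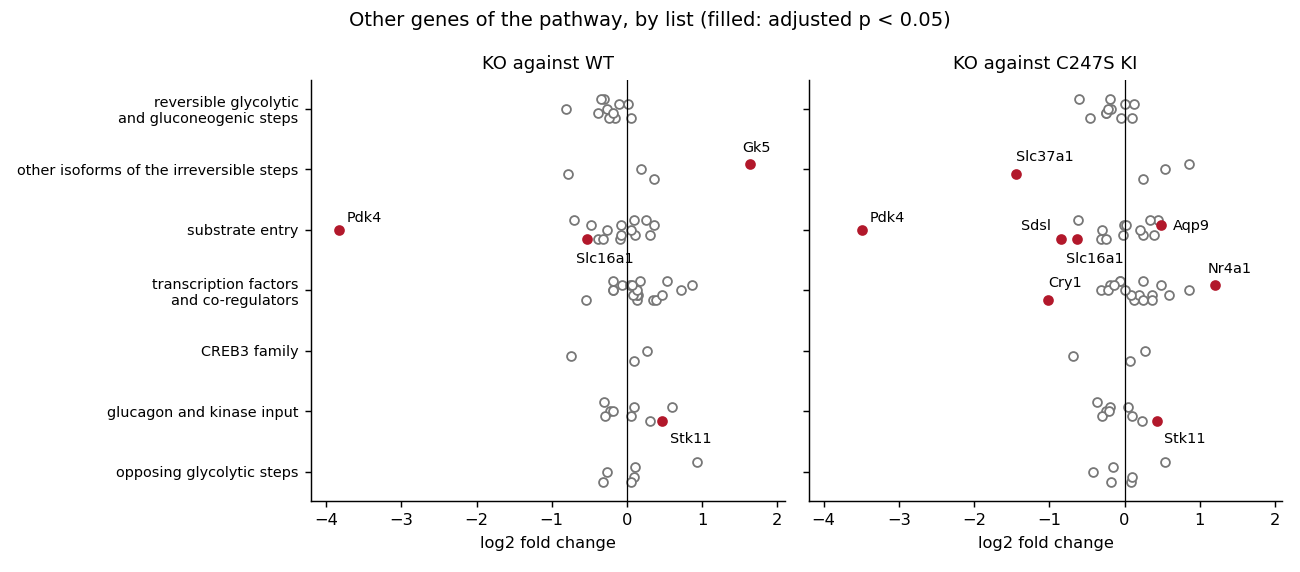
Log2 fold changes (horizontal axis) of the 68 other tested pathway genes in KO against WT and KO against C247S KI, 1 point per gene in rows by list, filled red and named where the adjusted p was below 0.05. Pdk4 stands far to the left at -3.83 and -3.49, and no point of the reversible steps or the opposing glycolytic steps is filled.

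The levels of Gk and Pck2 are set beside the clock index because the index separates the KO libraries from the others. The KO libraries occupy the range from 2.51 to 3.04, where no other library lies, so these data hold no library of another genotype at the same index.

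Within genotypes, after each genotype's mean log2 CPM had been removed, the members varied without a relation that passed adjustment. Of 36 pairs over 15 libraries, 0 had an adjusted permutation p below 0.05 by Pearson's r or by Spearman's rho, and 20 had a positive r. The pair with the lowest p was Pck2 with Gk (r = -0.58, permutation p = 0.00454, adjusted 0.163, rho = -0.61, permutation p = 0.0167, adjusted 0.388), and r was -0.60 without WT 1 and WT 5. Pck1 and its coactivator Ppargc1a had r = 0.76 (permutation p = 0.0154, adjusted 0.196, rho = 0.64, permutation p = 0.0215, adjusted 0.388), and r was 0.61 without C247S KI 1 and C247S KI 5.

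As a description with no test, the genes most like each member were sought by the same r over the 15 libraries among 9045 genes with a mean of at least 5 CPM. The libraries share their depth and composition across genes. For Pck1 these were Foxo1 (r = 0.88), BC005537 (0.86) and Tob1 (0.86), and for G6pc Lipg (0.82), Slc20a2 (0.80) and Ppp1r3b (0.80). For Gk they were Mob1b (0.92), Tmem106b (0.91) and Sh3glb1 (0.91), and for Pck2 Rela (0.95), Naa80 (0.93) and Rrbp1 (0.91). For Pcx they were Clpb (0.93), Vcp (0.92) and Lonp1 (0.92), and for Fbp1 Iah1 (0.93), Tcea3 (0.93) and Kdelr2 (0.91). For Slc37a4 they were Ndufs3 (0.92), Adh5 (0.91) and Rbp4 (0.90). For Ppargc1a they were C9orf72 (0.88), Klf3 (0.84) and Acly (0.84), and for Creb3l2 Stat2 (0.92), Mug-ps1 (0.91) and Ddhd1 (0.91).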

How the data were processed

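Bulk liver RNA of 15 libraries was measured, grouped by sample title. The deposited values are estimated counts per transcript, whole numbers that the authors made with kallisto 0.50.1 after Trimmomatic 0.39, tools named in the submitters' processing notes. The notes also list mm10 and DESeq2. The transcript set, aligner settings and strand of counting are not given in the sources used here, and without strand a gene and an antisense partner (Gm10876 for Pck2, Gm14764 for Gk) cannot be told apart. Estimation had divided reads shared by transcripts before deposit.

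Transcripts were matched to GENCODE M21 by ID without version (114331 of 115911, 13 with the same version, the 1580 others holding 0.366% to 0.459% of counts and left out) and summed by symbol. Genes passing filterByExpr (minimum count 10, minimum total 15) entered 1 group-means fit (R 4.3.3, edgeR 4.0.16, TMM, quasi-likelihood test, Benjamini-Hochberg). The same was done over all transcripts. SE is the log2 change over the root of F, and 95% intervals use the t quantile of the fit. CPM uses TMM-scaled totals, log2 CPM a prior count of 2, and TPM annotated lengths. Totals of 18047577 to 23379940 limit the precision of genes with few counts, such as Pck2, Gk5, Creb3l1 and, in KO livers, Pdk4. Libraries of a group differed beyond sampling noise (22.8 to 368.5 for chi-square over its degrees of freedom). The labels do not say that libraries are separate animals, so p-values measure the spread between libraries. Correlations used 100000 permutations within genotypes. The edgeR steps were tested on simulated data.

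Named genes are the 9 members, Txnip, up to 3 called genes per pathway list and comparison, and the 3 most alike genes of each member. Aqp9, Trib3, genes that only DESeq2 called, the examples Gapdh and Pklr and the cell type markers were named outside this rule. They were chosen after their values were seen. Members and lists were chosen with earlier results of these data known. Alternatives were RLE factors, DESeq2 1.42.0, limma-voom 3.58.1, no filter, a mean count of at least 50, only the 2 groups, a replicate block, the clock index, protein-coding transcripts only and libraries left out. Marker lists for hepatocytes, cholangiocytes, macrophages, endothelium, stellate, adipose, kidney and pancreas cells were also measured.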

Additional observations from a re-analysis of the deposited data

Results flagged for a closer look

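Within genotypes, 3 of 27 gene and genotype groups held a library that stood apart from its 4 companions by Dixon's test at the 95% level, which chance alone marks in about 1 in 20 groups. Pcx was low in WT 1, at 506.6 CPM against 909.2 to 999.9 CPM in the other WT libraries. Ppargc1a was high in C247S KI 1, at 40.9 CPM against 6.33 to 11.9 CPM in the other C247S KI libraries. Creb3l2 was high in C247S KI 5, at 26.0 CPM against 15.6 to 17.8 CPM in the others of its genotype.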

How the results depend on the processing

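The falls of Gk in KO against WT and KO against C247S KI and of Pck2 in KO against C247S KI kept their direction in all alternatives and passed in all but the fit with the clock index, where 0 of the 9 genes were called in either comparison. That fit called few genes of any kind. Of 13916 tested genes, 39 were called higher and 134 lower in KO against WT, and 20 and 64 in KO against C247S KI. In KO against WT 2 genes were called when WT 1 was left out and 2 when C247S KI 3 and C247S KI 5 went with it, Pck2 being added each time; leaving out single libraries gave 1 to 2. Pathway genes called in KO against WT, 4 in the fit reported, were 9 with DESeq2, 2 with limma-voom, 8 with only the 2 groups, 7 with the replicate block, 0 with the clock index, 9 without the 3 libraries, and 2 to 6 with single libraries left out (2 without KO 3, KO 4, WT 2, WT 3 or WT 4). Calls over all genes moved too, from 356 higher and 583 lower in the fit reported. They were 613 and 880 with DESeq2, 348 and 502 with limma-voom and 542 and 749 with only the 2 groups. The replicate block gave 438 and 608, and leaving out the 3 libraries 643 and 899. In KO against C247S KI, 8 pathway genes became 0 with the clock index, 14 without the 3 libraries and 5 to 10 with single libraries left out (5 without KO 2, KO 5 or C247S KI 4). Without the 3 libraries 728 of all genes were called higher and 971 lower there, beside 613 and 814 in the fit reported. Member transcripts called in KO against WT were 0 to 1 (0 without KO 2 or KO 5). The sign of changes that passed in no fit turned as follows. With the clock index KO against WT became -0.07 for G6pc, 0.02 for Pcx and -0.02 for Creb3l2. In C247S KI against WT, leaving out the 3 libraries gave 0.12 for Pck1, 0.17 for Fbp1 and 0.01 for Slc37a4, protein-coding transcripts only gave 0.00 for Fbp1, and limma-voom and the replicate block each gave -0.16 for Ppargc1a. With single libraries left out, G6pc ranged from -0.07 to 0.31 in KO against WT, from -0.05 to 0.36 in C247S KI against WT and from -0.26 to 0.20 in KO against C247S KI. Over the same fits of C247S KI against WT, Pck1 ranged from -0.25 to 0.06, Fbp1 from -0.07 to 0.10, Pcx from -0.04 to 0.17 and Ppargc1a from -0.62 to 0.32, and Ppargc1a from -0.80 to 0.17 in KO against C247S KI. The cause of these shifts was not tested. Same-numbered libraries deviated together in 4 of 15 pairs (r above 0.1, range -0.141 to 0.381) and matched their own number best in 14 of 60 cases, so the numbers do not pair them; the block changed no call among the 9 genes. Low counts limit Pck2, Gk5, Creb3l1 and, in KO livers, Pdk4. Transcript fits were not repeated with DESeq2, limma-voom or the clock index.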

Other observations

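Markers of other cell types, measured beside the 9 genes, moved with genotype in places. Summed CPM of 5 cholangiocyte markers was 46.5 to 121.2 in C247S KI livers and 34.7 to 53.3 in WT livers, with 0 of 5 called by edgeR, DESeq2 or limma-voom and 3 at an unadjusted p below 0.05, and Spp1 and Sox9 fell in KO against C247S KI. Of 5 sinusoidal endothelial markers, Pecam1 and Lyve1 fell in KO against WT, while Stab2 had a log2 change of 0.31, Clec4g 0.03 and Oit3 -0.18, none of which passed. In KO against WT 0 of 5 markers were called by edgeR or limma-voom in the lists of periportal hepatocytes, pericentral hepatocytes, cholangiocytes, macrophages and stellate cells, with 1, 3, 1, 1 and 0 at an unadjusted p below 0.05. DESeq2 called Sds of the periportal list and Cyp1a2, Cyp2e1 and Lgr5 of the pericentral list there. In KO against C247S KI the pericentral genes Cyp1a2 and Cyp2e1 rose. Of 4 hepatocyte markers, Alb fell in KO against both other groups, with a log2 change of -0.80 against each. The other 3 did not pass, with 0.52 for Serpina1c, 0.03 for Apoa1 and -0.20 for Ttr against WT and 0.62, -0.11 and 0.20 in that order against C247S KI. DESeq2 called Serpina1c in the second comparison. Among the few extrahepatic markers with enough counts, Cfd of adipose tissue fell and Cela1 of pancreas rose in KO against both, and the 1 tested kidney marker was called in no comparison by edgeR, DESeq2 or limma-voom, with an unadjusted p below 0.05 in 1 of 3. The part of these markers in the results on the 9 genes was not tested.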
